A study of Mus musculus with 24 samples.

Results

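Transporters that take up peptides, sugars and amino acids from the gut lumen were examined in mouse colon. The 10 genes were Slc15a1, Slc5a1, Slc2a2, Slc2a5, Slc6a14, Slc6a19, Slc6a20a, Slc7a9, Slc3a1 and Slc1a1, out of 45616 gene names on the array. They were chosen by their solute class and with earlier results of these same arrays in view. The values that chose them include the diet comparisons below, so the levels and changes of the 10 genes are given as a description. Calls, standard errors and intervals of these 10 genes describe size and spread and are not read as tests. All 10 were on the array, with 12 of its 56605 probes. Slc7a9 and Slc1a1 had 2 probes each.

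Colon RNA was hybridized to Agilent 1-color arrays, with 24 arrays in 6 groups of 4. The groups were male (M), female (F) and ovariectomized female (F(OVX)) C57BL/6J mice, fed for 14 weeks on a diet with 10 kcal% fat (low-fat diet, LFD) or 45 kcal% fat (high-fat diet, HFD). All mice of all groups received azoxymethane (AOM, 10 mg/kg), a colon carcinogen, and 3 cycles of 1.5% dextran sulfate sodium, which injures the colon lining, so no group was free of the tumor model. The mice were 7 weeks old on arrival. Males and intact females had sham surgery and the others ovariectomy at 8 weeks, and tissue was taken 75 days after AOM. The methods state 5 animals per group for the arrays and the labels give 4, and nothing beyond the labels and methods says that the 4 arrays of a group came from separate animals.

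Each sex or surgery had a slide of its own, so sex and surgery cannot be told apart from the slide. On every slide row 1 held LFD and row 2 held HFD, so diet and row cannot be told apart either. Per array, 40.5% to 61.9% of probes were detected well above background. All 10 epithelial markers examined, such as Epcam and Krt8, were well above background on every array, with a summed log2 signal between 18.27 and 18.97. All 8 markers of absorptive colonocytes, such as Car1 and Aqp8, were so as well.

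Of the M + LFD arrays, 3 stood apart. Hoxb13, a homeobox gene of the hindgut that marks distal colon, read 2.18 on replicate 1, where it was not well above background, and 5.04 on replicate 2, against 12.58 to 14.79 on the other 22 arrays. Hoxb6, a more anterior homeobox gene, read 12.71 and 11.20 on these 2 arrays and 8.35 or less elsewhere. The intestinal disaccharidase Sis read 7.98 and 9.20 there and at most 5.84 elsewhere. M + LFD replicate 3 carried genes of the exocrine pancreas: all 7 markers were well above background, among them Cela2a at 16.84, whereas 5 of the 7 were so on M + LFD replicate 1 and 1 to 3 on each of the other 22 arrays. The male diet differences of the members rest in part on these 3 arrays and are given with and without them.

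As background, enterocytes absorb the products of digestion through carriers of the solute carrier (SLC) families in their brush border. Most of these carriers are driven by the gradient of protons or sodium across the membrane, and some work only as a pair of a transport subunit and a glycoprotein that brings it to the surface. In mice and humans they are known chiefly from the small intestine and the kidney tubule, and several of them are sparse in healthy colon. In bulk tissue, fewer absorptive cells and less RNA per cell cannot be told apart.

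The sequence just before the start of the gene is shown for the 2 members with the largest diet differences, Slc15a1 and Slc3a1, whose signals ran opposite ways from array to array. The RefSeq table of GRCm38.p6 promoters held all 10 members. Each stretch is the 250 bases before the start, read 5′ to 3′ on the strand of the gene. Capitals mark matches to the letters of 4 motifs on either strand: TTTATG (CDX), GTTAAT (part of the HNF1 site), CAAAGTCCA (HNF4) and, for the box that TBP binds, TATAAA. The Slc3a1 stretch lies at chr17:85028097-85028346 on the plus strand, and the Slc15a1 stretch at chr14:121505255-121505504 on the minus strand.
Slc3a1: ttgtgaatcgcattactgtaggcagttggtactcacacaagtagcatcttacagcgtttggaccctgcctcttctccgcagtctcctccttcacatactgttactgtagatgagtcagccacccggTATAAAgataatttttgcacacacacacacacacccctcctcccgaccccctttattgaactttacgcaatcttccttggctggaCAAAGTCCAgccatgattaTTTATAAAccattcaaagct
Slc15a1: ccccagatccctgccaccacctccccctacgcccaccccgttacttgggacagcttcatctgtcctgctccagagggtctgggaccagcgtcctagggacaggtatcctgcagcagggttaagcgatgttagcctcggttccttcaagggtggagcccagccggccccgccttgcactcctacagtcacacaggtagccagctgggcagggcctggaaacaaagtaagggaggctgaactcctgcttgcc

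In the Slc3a1 stretch the HNF4 letters stood 39 to 31 bases before the start. The TBP letters stood at 124 to 119 and at 18 to 13 on the gene's own strand and at 20 to 15 on the other, where 2 of the matches overlap. The 250 bases before the start held the HNF4 letters in 0.384% of the 32851 promoters in the table, the TBP letters in 12.4%, the HNF1 letters in 6.43% and the CDX letters in 10.8%. The Slc15a1 stretch held none of the 4 motifs. Among the other members, only Slc6a20a had a match, to the HNF1 letters at 56 to 51 bases before the start. The stretches also differed in base composition, with 45.6% G and C for Slc3a1 and 62.0% for Slc15a1. A match describes letters in this window and says nothing of binding, and the arrays did not measure it.

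Signal is given below as log2 of the processed intensity after quantile normalization. A gene was compared between diets when all 4 arrays of at least 1 diet group held its brightest probe well above background. It was called when the fold change was at least 1.5 and the unadjusted p of limma, a linear model with moderated variances, was under 0.05. These are the thresholds of the study. In males 4.3% of the 20515 genes compared were called, 2.5% higher and 1.8% lower on HFD. In females 1.2% of 22085 genes were called, 0.398% higher and 0.797% lower. In OVX females 2.19% of 19211 genes were called, 1.18% higher and 1.02% lower. By limma, 0 genes of the whole array had an adjusted p under 0.05 in any of the 3 comparisons, while 1250, 643 and 709 genes had an unadjusted p under 0.05.

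Of the 10 transporters, 8 could be compared in males and 7 each in females and OVX females. In males 2 of the 8 were called, Slc15a1 and Slc1a1, both higher on HFD. In females 0 of the 7 were called. In OVX females 1 of the 7 was called, Slc3a1, higher on HFD. The shares of all genes called stand above, and since the same comparisons were in view when the genes were chosen, nothing is read from the counts. On the log2 scale the members compared had a median change of 0.54 in M, -0.24 in F and -0.10 in F(OVX), beside 0.01, -0.0045 and 0.0109 over all genes.

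**Figure D1:**
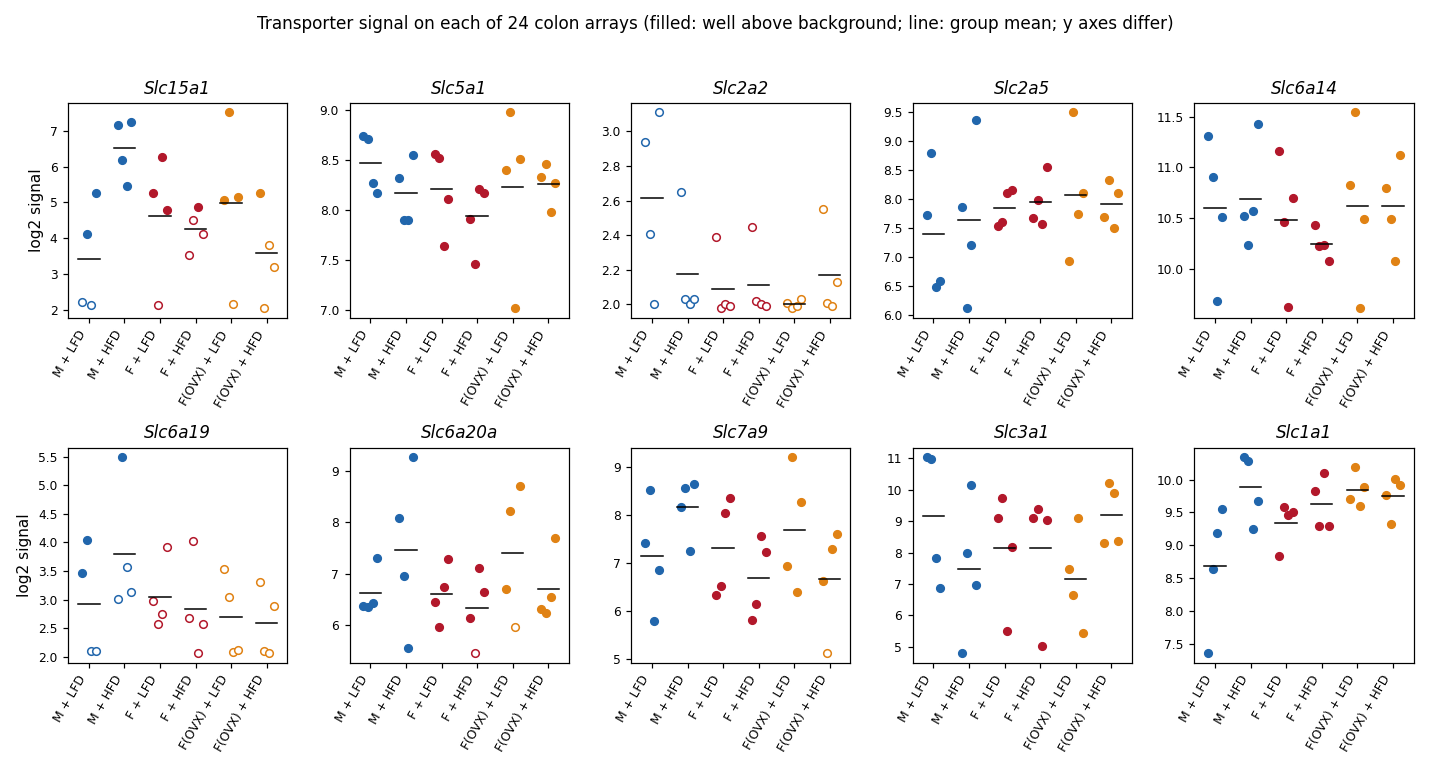
Log2 signal of each of the 10 transporters (y axis, a scale of its own in each panel) on the 4 arrays of each of the 6 groups (x axis), using the brightest probe. Filled points are arrays where the probe was well above background, open points are arrays where it was not, and bars are group means. The 4 M + HFD points of Slc15a1 lie between 5.46 and 7.23, above all 4 M + LFD points. Slc3a1 spreads between 4.81 and 11.03, and its diet groups overlap in every comparison, in OVX females through LFD replicate 3 alone.

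Slc15a1 encodes PepT1, the proton-coupled carrier of di- and tripeptides. Its probe (A_52_P420357, NM_053079) was well above background on 14 of the 24 arrays. In M + LFD it read 2.23, 4.12, 2.13 and 5.26 on replicates 1 to 4, with replicates 1 and 3 not well above background. In M + HFD it read 7.16, 6.18, 5.46 and 7.23. The male diet groups did not overlap, but the gene was chosen with these values in view, so nothing is read from the separation. The difference was 3.07 on the log2 scale (SE 0.74, 95% confidence interval 1.38 to 4.76, n = 4 and 4), an 8.4-fold higher signal on HFD. Only 2 of the 4 M + LFD arrays measured Slc15a1 above background, so it entered the comparison through M + HFD alone, where it was high. The size of the difference depends on how background was handled, and with normexp correction of the median signals it was 1.01.

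In females Slc15a1 read 5.25, 2.13, 6.26 and 4.80 on LFD and 3.54, 4.50, 4.86 and 4.11 on HFD. It was well above background on 3 of 4 LFD arrays and 1 of 4 HFD arrays, so it was not fitted there. In OVX females it read 5.08, 7.51, 2.17 and 5.15 on LFD and 5.26, 2.06, 3.82 and 3.21 on HFD, again well above background on 3 and 1 arrays. The female and OVX diet groups overlapped, with means that differed by -0.36 in females and -1.39 in OVX females (HFD minus LFD). Leaving out the dimmest LFD array raised the LFD mean and let the gene be fitted through the LFD group alone. The difference was then -1.18 without F + LFD replicate 2 and -2.33 without F(OVX) + LFD replicate 3. Both were called, but the removal itself favors a lower HFD value, so nothing is read from these calls. The group means ran from 3.44 in M + LFD through 3.59 in F(OVX) + HFD, 4.25 in F + HFD, 4.61 in F + LFD and 4.98 in F(OVX) + LFD to 6.51 in M + HFD. Every step but the last was smaller than the SD within groups, 1.47.

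The male difference in Slc15a1 moved with the arrays that stood apart. It was between 2.63 and 3.68, and called, when any 1 of the 8 male arrays was left out. It was 2.81, and called, without both arrays low in Hoxb13. Without all 3 M + LFD arrays that stood apart, an alternative chosen after seeing the data, it was 1.24 and not called, with 1 LFD array left that is assumed to vary like the others. That array, M + LFD replicate 4, read 5.26, below each of the 4 M + HFD arrays.

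Slc15a2, the kidney-type peptide carrier PepT2 and the closest relative of Slc15a1 among the genes listed, is described with the other transport genes. The genes whose signal followed Slc15a1 most closely over the 24 arrays, among 22382 genes, were Slc6a8, the creatine transporter (Pearson r = 0.93, Spearman rho = 0.93), Gcnt1, a glycan-branching enzyme (r = 0.88), Bmp2, a secreted signal of the upper crypt (r = 0.88), Arhgap35 (r = 0.86) and Rdh16 (r = 0.85). Without M + LFD replicates 1 and 2 these values were between 0.87 and 0.93. The points share slides, rows and normalization, so these are descriptions.

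Slc3a1 encodes rBAT, the glycoprotein subunit of the cystine and dibasic amino acid exchanger, and Slc7a9 encodes its transport subunit b0,+AT. Slc3a1 (A_51_P391727, NM_009205) was well above background on all 24 arrays and had the widest spread of the 10 genes, from 4.81 to 11.03. In F(OVX) + LFD it read 7.49, 6.64, 9.09 and 5.45, and in F(OVX) + HFD 8.30, 10.22, 9.88 and 8.38. The HFD values lay above 3 of the 4 LFD values, and replicate 3 on LFD lay inside the HFD range. The difference was 2.03 (SE 0.76, 95% confidence interval 0.31 to 3.75), 4.08-fold higher on HFD.

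In males Slc3a1 read 11.03, 10.99, 7.81 and 6.86 on LFD and 4.81, 7.97, 10.16 and 6.96 on HFD. The highest of all 24 values were those of M + LFD replicates 1 and 2, the arrays low in Hoxb13. The male difference was -1.69 (SE 1.30), was 0.14 without these 2 arrays and 0.62 without all 3 that stood apart, so its sign turned. In females it read 9.11, 9.75, 5.49 and 8.17 on LFD and 9.09, 9.37, 5.03 and 9.03 on HFD, with replicate 3 the lowest on both diets and a difference of 0.00 (SE 1.19). Group means ran from 7.16 in F(OVX) + LFD to 9.19 in F(OVX) + HFD, and every step in that order was smaller than the SD within groups, 1.86.

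Slc3a1 moved from array to array with some markers of position along the gut but not with all. Over the 24 arrays it followed Fabp2, the intestinal fatty acid binding protein, with r = 0.96 and rho = 0.95, and with r = 0.93, 0.98 and 0.99 on the M, F and F(OVX) slides. It ran against Hoxd13, the most posterior gene of its homeobox cluster, with r = -0.88 and rho = -0.79, and with r = -0.90, -0.91 and -0.80 on the 3 slides. Without the 2 arrays farthest from the median these were 0.94 with Fabp2 and -0.83 with Hoxd13. The next most similar genes were Fam3b (r = 0.95) and Dpep1, a brush-border dipeptidase (r = 0.94). With Hoxb13 the r of Slc3a1 was -0.57 (rho = -0.77). With Hoxb6 it was 0.53, and 0.28 without M + LFD replicates 1 and 2. Hoxa13, another distal colon marker, read 2 and 6.15 on these 2 arrays, where Slc3a1 was highest. In females it went the other way, at 8.63, 9.21, 7.92 and 8.09 on LFD and 9.07, 9.43, 8.25 and 8.57 on HFD. It was lowest there on replicate 3 of each diet, as Slc3a1 was. In F(OVX) + LFD Hoxd13 read 4.34, 10.87, 4.29 and 10.07, and Fabp2 13.14, 11.71, 14.30 and 10.80. In F(OVX) + HFD Hoxd13 read 4.95, 4.93, 4.29 and 5.73, and Fabp2 13.81, 15.40, 14.70 and 13.62.

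The 2 OVX arrays with the highest Hoxd13, LFD replicates 2 and 4, were those with the lowest Slc3a1. Of the 8 distal colon markers 7 were measured, with 3 to 7 well above background in F(OVX) + LFD (summed log2 signal 14.27 to 14.90) and 3 to 4 in F(OVX) + HFD (13.68 to 14.84). Of 12 markers of small intestinal enterocytes, 4 to 8 were well above background in F(OVX) + LFD (11.28 to 14.37) and 4 to 7 in F(OVX) + HFD (13.78 to 15.45). Most of each sum was the signal of Fabp2, so the sums do not stand apart from it. The markers of this list did not all move together. Alpi read 5.18, 4.90, 6.41 and 4.68 on LFD and 6.12, 8.27, 7.60 and 6.46 on HFD. Slc10a2 went the other way, at 4.82, 8.03, 5.43 and 5.85 on LFD and 4.01, 3.23, 4.44 and 2.21 on HFD. The part of the sampled position in the Slc3a1 difference was not tested. The OVX difference was not called under the methods' t-test, in 1 fit of all arrays, or without F(OVX) + LFD replicate 2 (1.85) or 4 (1.46) or F(OVX) + HFD replicate 2 (1.69) or 3 (1.80).

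**Figure D2:**
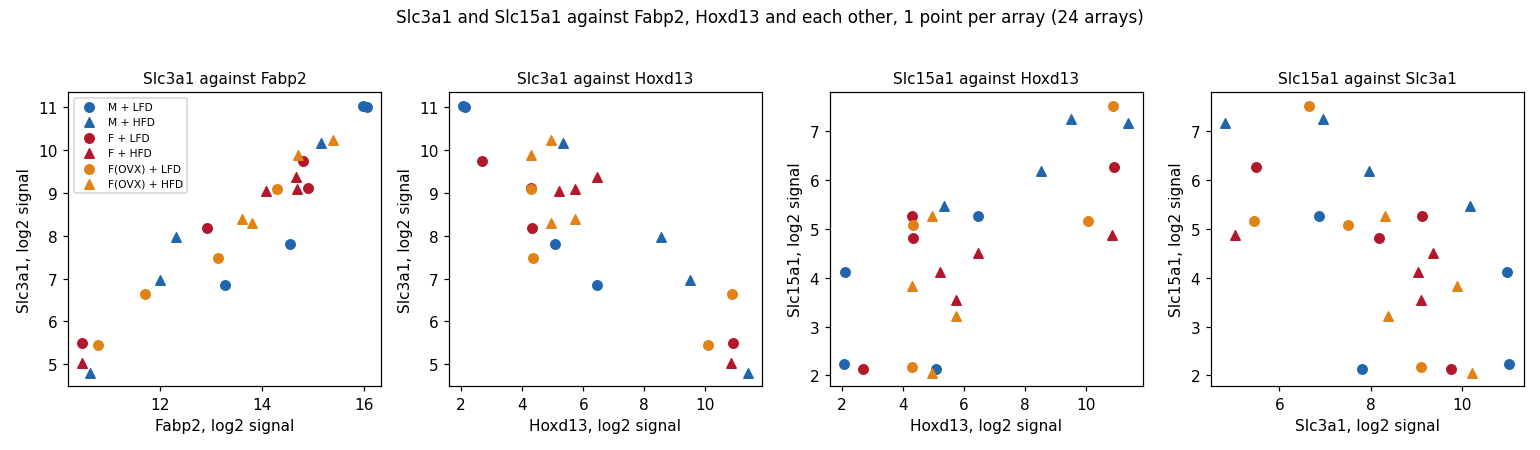
Log2 signal of Slc3a1 against Fabp2 and against Hoxd13, and of Slc15a1 against Hoxd13 and against Slc3a1, 1 point per array, colored by sex and surgery, with circles for LFD and triangles for HFD. Slc3a1 rises with Fabp2 (r = 0.96) and runs against Hoxd13 (r = -0.88), while Slc15a1 rises with Hoxd13 (r = 0.72) and runs against Slc3a1 (r = -0.63).

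Slc15a1 showed the opposite relation to the same markers. Its r was 0.72 with Hoxd13 (rho = 0.65), with 0.83, 0.66 and 0.69 on the M, F and F(OVX) slides, and -0.69 with Fabp2. With Hoxb13 it was 0.38 (rho = 0.61) and with Hoxb6 -0.43 (rho = -0.39). With Slc3a1 it was -0.63 (rho = -0.59), and -0.61, -0.64 and -0.73 on the 3 slides. Hoxd13 in males read 2.07, 2.11, 5.08 and 6.46 on LFD and 11.38, 8.53, 5.35 and 9.49 on HFD. The distal colon list in M + LFD had 2 to 4 of 7 markers well above background (summed 7.21 to 14.06) and in M + HFD 4 to 7 (13.98 to 15.15). The list of small intestinal enterocytes had 5 to 12 of 12 in M + LFD (13.40 to 16.28) and 4 to 7 in M + HFD (11.47 to 15.20). Most of each sum was again the signal of Fabp2. The part of these markers in the male difference of Slc15a1 was not tested.

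Slc7a9 (A_52_P474145, NM_021291), the partner of Slc3a1, was well above background on 23 arrays. In M + LFD it read 7.42, 8.52, 5.81 and 6.87 and in M + HFD 8.17, 8.58, 7.25 and 8.66. In females it read 6.35, 6.53, 8.06 and 8.37 on LFD and 5.83, 6.15, 7.58 and 7.23 on HFD. In OVX females it read 6.94, 9.21, 6.40 and 8.27 on LFD and 6.64, 5.14, 7.31 and 7.62 on HFD, with 5.14 not well above background. The diet groups overlapped in all 3, with differences of 1.01 (SE 0.56), -0.63 (SE 0.57) and -1.03 (SE 0.70). The male difference was 1.83, and called, without both arrays low in Hoxb13, and 1.47, and called, without M + LFD replicate 2 alone. It was 1.29, and not called, without all 3 arrays that stood apart.

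The 2 subunits did not move together in these arrays. The signal of Slc7a9 correlated with that of Slc3a1 at r = -0.42 (rho = -0.40), and at -0.03, -0.66 and -0.76 on the M, F and F(OVX) slides. Slc7a9 was instead closer to Slc15a1 (r = 0.68) and Slc6a20a (r = 0.67). The same-numbered female arrays deviated together, and in a fit blocked by replicate number Slc7a9 was called lower in F + HFD, at the same difference of -0.63. No other member was called in that fit, which called 586 of all 22085 genes, against 264 in the main fit. The call of Slc7a9 is given as a description. Slc7a9 was lower on HFD in each of the 4 female pairs of the same number. Its other probe (A_55_P2619887), well above background on 3 arrays, followed the brighter one with r = 0.83 and had mean differences of 0.93, -0.50 and -1.36 in males, females and OVX females. Group means of Slc7a9 ran from 6.68 in F(OVX) + HFD to 8.16 in M + HFD, in steps smaller than the SD within groups, 1.03. Its closest genes were B4galt1, a galactosyltransferase, and Gal3st2, a sulfotransferase (both r = 0.87), and Saa2, an acute-phase protein (r = 0.84).

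Slc1a1 encodes EAAT3, the sodium-coupled carrier of glutamate and aspartate. Its brighter probe (A_51_P110759, NM_009199) read 7.36, 8.63, 9.19 and 9.55 in M + LFD and 10.34, 10.28, 9.24 and 9.67 in M + HFD. The 2 lowest of all 24 values were those of M + LFD replicates 1 and 2. The groups overlapped, and the difference was 1.20 (SE 0.47, 95% confidence interval 0.12 to 2.27), 2.29-fold higher on HFD, with 1.14 for the other probe (A_52_P637988; r = 0.96 between the probes). It was 0.51 without these 2 arrays and 0.33 without all 3 that stood apart, and it was not called in either. Leaving out M + LFD replicate 1 (0.76) or 2 (1.18) or M + HFD replicate 1 (1.05) or 2 (1.07) alone also ended the call, as did the methods' t-test.

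In females Slc1a1 read 8.83, 9.58, 9.46 and 9.50 on LFD and 9.83, 9.30, 10.10 and 9.29 on HFD, a difference of 0.29 (SE 0.24). In OVX females it read 9.71, 10.19, 9.60 and 9.89 on LFD and 9.76, 9.32, 10.01 and 9.92 on HFD, a difference of -0.10 (SE 0.20). Outside M + LFD, where the mean was 8.68, the 5 group means lay between 9.34 and 9.88, in steps smaller than the SD within groups, 0.52. Slc1a1 followed Hoxb13 with r = 0.84, which was 0.65 without M + LFD replicates 1 and 2. Its closest genes were Adh1, an alcohol dehydrogenase (r = 0.88), B3gnt7 (r = 0.87) and Avpr1b (r = 0.87). Without these 2 arrays the first 2 fell to 0.66 and 0.68, and Avpr1b to 0.81.

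**Figure D3:**
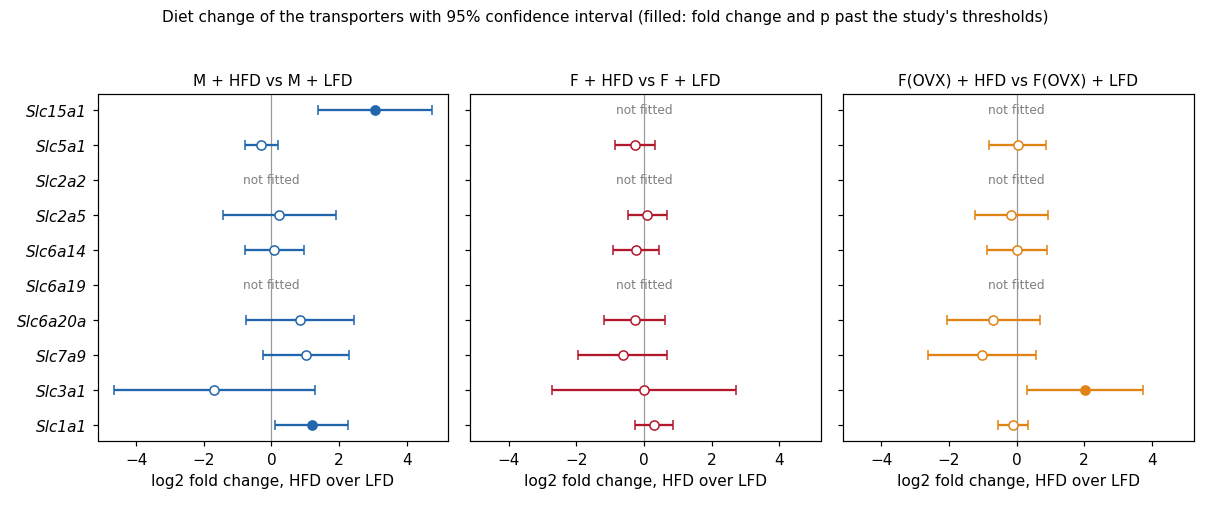
Log2 fold change of HFD over LFD (x axis) for each transporter (y axis) in males, females and OVX females, with the 95% confidence interval of limma on 8 arrays. Filled points are genes called at the thresholds of the study, and genes too dim to compare are marked as not fitted. Slc15a1 (3.07) and Slc1a1 (1.20) in males and Slc3a1 (2.03) in OVX females are filled.

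Slc6a20a encodes SIT1, a carrier of proline and other imino acids. Its probe (A_55_P2032916, NM_139142) was well above background on 22 arrays. In M + LFD it read 6.37, 6.36, 6.44 and 7.31 and in M + HFD 8.08, 6.95, 5.56 and 9.26, so M + HFD held both the highest value of all arrays and one of the lowest. In females it read 6.46, 5.97, 6.75 and 7.28 on LFD and 6.14, 5.47, 7.11 and 6.65 on HFD. In OVX females it read 6.71, 8.21, 5.96 and 8.70 on LFD and 6.31, 6.24, 6.56 and 7.70 on HFD. The diet groups overlapped throughout, with differences of 0.84 (SE 0.70), -0.27 (SE 0.39) and -0.70 (SE 0.61). The male difference was called without M + HFD replicate 3 (1.48) and was 0.25 without M + HFD replicate 4. It was 0.59 without both arrays low in Hoxb13 and 0.16 without all 3 that stood apart, and not called in either.

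The array-to-array pattern of Slc6a20a resembled that of Slc15a1 more than that of Slc3a1. It correlated with Slc3a1 at r = -0.68, at -0.72, -0.64 and -0.83 on the 3 slides, and with Hoxd13 at r = 0.65. Its r with Slc15a1 was 0.58. Group means ran from 6.34 in F + HFD to 7.46 in M + HFD, in steps smaller than the SD within groups, 0.97. Among genes with a symbol, Gm15706 (r = 0.90) and Ssbp3 (r = 0.89) were closest to it.

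Slc6a14 encodes ATB0,+, a broad carrier of neutral and cationic amino acids driven by sodium and chloride, and it is known from the distal gut. It (A_52_P501816, NM_020049) was well above background on all 24 arrays, with values between 9.62 and 11.54. Its diet differences were 0.09 (95% confidence interval -0.78 to 0.95) in males, -0.24 (-0.92 to 0.44) in females and 0.00 (-0.89 to 0.89) in OVX females. The male difference was 0.59 without both arrays low in Hoxb13 and 0.18 without all 3 that stood apart. Group means lay between 10.25 and 10.69, all within the SD within groups of 0.58. It rose and fell across arrays with Slc5a1, at r = 0.74 and rho = 0.74, and at 0.64, 0.64 and 0.86 on the 3 slides. Fbxo25 (r = 0.84) was the closest gene with a symbol.

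Slc6a19 encodes B0AT1, the main carrier of neutral amino acids in the small intestine. Its probe (A_55_P1997595, NM_028878) was well above background on 3 of 24 arrays, at 3.47 on M + LFD replicate 1, 4.05 on M + LFD replicate 2 and 5.49 on M + HFD replicate 2. The first 2 of these are the arrays low in Hoxb13. The gene was not compared between diets, and no level can be given for it in females or OVX females.

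Of the sugar carriers among the 10 genes, 0 were called in any comparison. Slc5a1 (A_52_P669128, NM_019810), the sodium-coupled glucose carrier SGLT1, was well above background on all 24 arrays, between 7.02 and 8.98. Its differences were -0.30 (95% confidence interval -0.79 to 0.18) in males, -0.27 (-0.85 to 0.31) in females and 0.03 (-0.81 to 0.88) in OVX females. In males it was -0.05 without both arrays low in Hoxb13 and 0.00 without all 3 that stood apart. Its lowest value, 7.02, was on F(OVX) + LFD replicate 3, the array with the fewest probes above background (40.5%). Napg (r = 0.85) and Nmrk1 (r = 0.84) were the closest genes with a symbol.

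Slc2a5 (A_51_P514405, NM_019741), the fructose carrier GLUT5, was well above background on all arrays, between 6.13 and 9.49. In males it read 7.73, 8.80, 6.49 and 6.60 on LFD and 7.86, 6.13, 7.21 and 9.36 on HFD, so both diet groups spread over more than the difference of 0.23 (95% confidence interval -1.44 to 1.91) between them. The difference was 1.09 without both arrays low in Hoxb13 and 1.04 without all 3 that stood apart, and not called in either. The differences were 0.10 (-0.48 to 0.68) in females and -0.16 (-1.24 to 0.93) in OVX females. Its signal followed that of Nr1d2, a repressor of the circadian clock, with r = 0.88 and rho = 0.82 over 24 arrays. Slc2a2 (A_52_P409988, NM_031197), the basolateral carrier GLUT2, was well above background on 0 of 24 arrays and is given no level.

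Among the members, 5 were well above background on all 24 arrays: Slc5a1, Slc2a5, Slc6a14, Slc3a1 and Slc1a1. The intervals of Slc5a1, Slc2a5 and Slc6a14 all contain 0 and do not show that diet left these genes as they were. In males the interval of Slc2a5 reached 1.91, whereas that of Slc5a1 ended at 0.18.

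The other genes of uptake were taken from 5 lists with 82 genes: brush-border hydrolases and collectrin, other amino acid and peptide transporters, other sugar transporters and fructose enzymes, ion gradients and scaffolds of the brush border, and transcription factors of the intestinal epithelium. Of these 82, 60 were compared in M, 62 in F and 57 in F(OVX). By limma 4 were called in males (6.67% of those compared), 1 in females (1.61%) and 1 in OVX females (1.75%), against 4.3%, 1.2% and 2.19% of all genes. Their median change was -0.06, -0.04 and 0.08, beside 0.01, -0.0045 and 0.0109 over all genes. By limma 0 of them had an adjusted p under 0.05.

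In males 1 of 9 hydrolases was called, Ace, the peptidase known as angiotensin-converting enzyme. It read 7.25, 7.63, 7.61 and 7.98 on LFD and 8.80, 8.30, 8.04 and 8.39 on HFD, without overlap, 0.76 higher on HFD (SE 0.21, adjusted p = 0.801). Of 19 amino acid and peptide transporters 1 was called, Slc36a1, the proton-coupled amino acid carrier PAT1. It read 7.47, 7.20, 6.96 and 7.86 on LFD and 9.0, 8.80, 7.14 and 9.55 on HFD, 1.25 higher (SE 0.48, adjusted p = 0.801), with replicate 3 on HFD inside the LFD range.

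Of 13 sugar genes 1 was called in males, the glucose carrier Slc2a6, at 8.33, 9.53, 7.61 and 8.10 on LFD and 7.50, 7.82, 7.24 and 6.44 on HFD, a difference of -1.15 (SE 0.44, adjusted p = 0.801). Of 12 transcription factors 1 was called, Cdx2, the homeobox factor of intestinal identity. It read 14.23, 14.07, 13.44 and 12.75 on LFD and 10.77, 11.83, 13.23 and 11.59 on HFD, a difference of -1.77 (SE 0.53, adjusted p = 0.801). Among the male arrays Cdx2 was lowest on M + HFD replicate 1, the array with the highest Hoxd13 and the lowest Slc3a1 of all 24. Among the female arrays it was lowest on replicate 3 of LFD (9.52) and HFD (9.16), where Hoxd13 read 10.90 and 10.84. In OVX females it was lowest on LFD replicates 2 and 4 (11.10 and 10.81), where Hoxd13 read 10.87 and 10.07. The part of the sampled position in the male Cdx2 difference was not tested. In the list of ion gradients and scaffolds 0 of 7 genes were called in any comparison. Without both arrays low in Hoxb13, Ace (0.58), Slc36a1 (1.22), Slc2a6 (-0.61) and Cdx2 (-1.24) were not called. Mep1a, a brush-border peptidase, then was, at 0.68, whereas with all arrays it had a difference of -0.60. Without all 3 arrays that stood apart 0 were called. When 1 array was left out, Ace and Cdx2 were called each time. Ace was not called under normexp, however, nor Cdx2 in 1 fit of all arrays. The methods' t-test called neither Slc36a1 nor Slc2a6, and with the mean over all probes Slc36a1 was not called. Slc36a1 was not called without M + LFD replicate 2 (1.20) or 3 (1.12) or M + HFD replicate 1 (1.13), 2 (1.20) or 4 (0.95), and Slc2a6 not without M + LFD replicate 2 (-0.77) or M + HFD replicate 3 (-1.14) or 4 (-0.87).

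In females 1 of 21 amino acid and peptide transporters was called, Slc15a2, the high-affinity peptide carrier PepT2. It read 9.38, 9.04, 7.31 and 8.48 on LFD and 8.64, 2.01, 2.68 and 6.59 on HFD, where replicates 2 and 3 were not well above background. The difference was -3.57 (SE 1.40, adjusted p = 0.991). M + LFD replicates 2 and 3, M + HFD replicate 4 and F(OVX) + LFD replicate 3 read 2.26, 2.04, 2.01 and 1.99 with the same probe, so low values were found on both diets. In females 0 of these genes were called under the methods' t-test, and 0 when either F + LFD replicate 1 or F + HFD replicate 3 was left out. Slc15a2 itself was not called without F + LFD replicate 1 (-3.30), 2 (-3.41) or 4 (-3.60) or F + HFD replicate 2 (-2.58) or 3 (-2.81). In 1 fit of all arrays Slc15a2 was not called either. Its difference was -1.78 with normexp and -1.45 over the mean of its probes. In the fit blocked by replicate number, which called 586 of all 22085 genes, 3 of the listed genes were called: Gata5, Slc15a2 and Slc9a3.

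In OVX females 1 of 12 sugar genes was called, the facilitative carrier Slc2a10. It read 7.08, 6.40, 7.19 and 5.99 on LFD and 7.27, 8.29, 8.27 and 7.70 on HFD. The groups did not overlap, and the difference was 1.22 (SE 0.33, adjusted p = 1). It was called in every alternative run, between 0.87 and 1.42. Its 2 lowest OVX values were on LFD replicates 2 and 4, where Hoxd13 read 10.87 and 10.07. It was also lowest of its group on M + HFD replicate 1 (6.33), F + LFD replicate 3 (5.60) and F + HFD replicate 3 (5.73). Hoxd13 read 11.38, 10.90 and 10.84 on these arrays. The part of the sampled position in the Slc2a10 difference was not tested. No gene of the other 4 lists was called in OVX females.

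**Figure D4:**
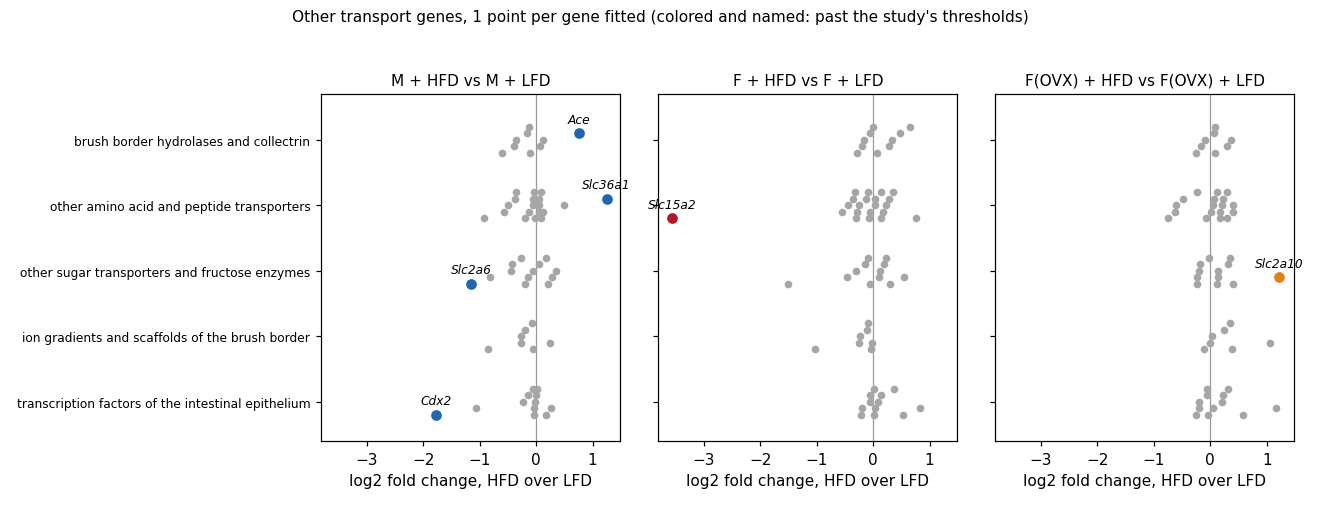
Log2 fold change of HFD over LFD (x axis) for each compared gene of the 5 lists (y axis, spread vertically within a list for legibility) in males, females and OVX females. Gray points were not called, and the called genes are colored and named: Ace (0.76), Slc36a1 (1.25), Slc2a6 (-1.15) and Cdx2 (-1.77) in males, Slc15a2 (-3.57) in females and Slc2a10 (1.22) in OVX females.

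Whether the diet changes differed between the sexes or with surgery was tested in 1 limma fit of all 24 arrays and is given for the genes of the 5 lists. Of the 64 listed genes tested, 0 had an adjusted p under 0.05 for males against females, males against OVX females or OVX females against intact females. Their smallest adjusted p-values were 0.975, 0.562 and 1. At an unadjusted p under 0.05 the counts were 1, 9 and 1 of 64, while 788, 1660 and 475 of all 22383 genes passed. The members were chosen with these comparisons in view and are given no such test, so a call of a member in 1 comparison shows no difference between males, females and OVX females.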

How the data were processed

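The authors hybridized each RNA sample to 1 array and read the spots with Agilent Feature Extraction 11.0.1.1. They deposited linear intensities per spot, background-subtracted within each array and without normalization between arrays. Following the methods, the log2 of the processed intensity was quantile-normalized across all 24 arrays. Spots marked as outliers and control spots were left out, spots of a probe were averaged, and accessions were matched to GRCm38.p6 symbols. The brightest probe stood for a gene. The 75th percentile of the signal ranged from 123 to 664 scanner units; precision is limited by the number of arrays. HFD and LFD were compared with limma 3.58.1 in R 4.3.3, on 8 arrays each, with Benjamini-Hochberg adjustment over all genes compared. The fit was tested on simulated data. The members and lists were chosen with earlier results of these data known. The genes named are the members, the called genes of the 5 lists, the genes closest to each member over the arrays, and Hoxb13. Single markers of tissue and position (Hoxa13, Hoxb6, Hoxd13, Fabp2, Sis, Alpi, Slc10a2, Cela2a, Epcam, Krt8, Car1, Aqp8) and listed genes called under an alternative (Gata5, Slc9a3, Mep1a) were named after their values were seen. Labels share replicate numbers between diets. Deviations of same-numbered arrays correlated at 0.25, 0.39, 0.51 and 0.23 in females, while in males and OVX females at least 1 pair was below 0.1. The main fits did not pair the arrays in any group, and a fit blocked by replicate number was run as an alternative. Alternatives were another normalization, background correction, filter, probe rule, test and set of arrays. The values of 1 listed gene are not reported here.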

Additional observations from a re-analysis of the deposited data

Results flagged for a closer look

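In 3 of 56 groups of 4 values examined over the members' brightest probes and Hoxb13, 1 array stood far from the other 3, and chance flags about 1 group in 20. Slc6a20a read 7.31 on M + LFD replicate 4, against 6.36 to 6.44 on the other M + LFD arrays, which are the 3 that stood apart in their markers. Slc3a1 read 5.03 on F + HFD replicate 3, against 9.03 to 9.37 on the other F + HFD arrays. On that array Hoxd13 read 10.84, against 5.21 to 6.46 on the others of the group, and Fabp2 10.49, against 14.09 to 14.69. Slc1a1 read 8.83 on F + LFD replicate 1, against 9.46 to 9.58 on the other F + LFD arrays. The cause of these values was not tested.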

How the results depend on the processing

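Single arrays moved most counts. The members called ranged from 1 to 3 in males, 0 to 1 in females and 0 to 2 in OVX females when 1 array was left out, and the other transport genes called from 2 to 7, 0 to 3 and 1 to 4. Calls over all genes moved as well in these fits, from 584 to 1510 in males, 163 to 733 in females and 218 to 708 in OVX females. With all arrays they were 882, 264 and 421. Without all 3 M + LFD arrays that stood apart (chosen after seeing the data), 0 members and 0 other genes were called in males, and the differences were 1.24 for Slc15a1, 0.62 for Slc3a1 and 0.33 for Slc1a1. Without both arrays low in Hoxb13, 2 other genes were called, beside 868 of all 20587 genes compared. The methods' t-test called 1 member and 2 other genes in males, 0 other genes in females and 0 members in OVX females. With genes well above background on all arrays, 1 member was called in males, 0 other genes in females and 2 in OVX females. Under normexp the Slc15a1 difference in males was 1.01, and 2 other genes were called in OVX females, as also with no filter. With the mean over all probes, 2 members and 4 other genes were called in OVX females. In 1 fit of all arrays 0 members were called there. Without the 2 arrays with the fewest probes above background, 2 other genes were called in females, and 2 members and 4 other genes in OVX females. Over all genes that fit called 202 of 22543 in females and 708 of 20897 in OVX females. With the replicate block, 1 member and 3 other genes were called in females. In OVX females it gave 1 member and 2 other genes, and in males 2 members, where Slc7a9 was called in place of Slc1a1. The samples of these groups may share only a number. Over all genes in males, females and OVX females, the methods' t-test called 489, 125 and 209, and the replicate block 960, 586 and 555. With genes well above background on all arrays the calls were 633, 108 and 319 of 16830. In OVX females they were 269 under normexp, 843 of 45616 with no filter, 446 with the mean over all probes and 241 in 1 fit. Nothing is read from the changes in the counts of members or listed genes, and their cause was not tested. No alternative gave a listed gene an interaction at an adjusted p under 0.05.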
